A study of Homo sapiens with 16 samples.

Results

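TGM2 encodes transglutaminase 2, an enzyme that crosslinks proteins in the presence of calcium, binds GTP, and also acts outside the cell as an adhesion partner of integrins and fibronectin. The gene is described here across all 16 RNA sequencing libraries of a study of 2 human leukaemia cell lines. It is 1 of 60603 genes in the authors' count table. It was picked because of its pattern in these same libraries, so its levels and fold changes are given as a description, with no test. It had been picked under the working description of a retinoic acid target restricted to 1 line, and the data go against that description. TGM2 was higher with retinoic acid in both lines: the scaled counts were 6.22-fold higher in SKNO-1, where the gene already had a basal level, and went from 1 count to 5494 in U-937, where it was almost silent.

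All-trans retinoic acid (ATRA) is the ligand of the retinoic acid receptors. These receptors sit on DNA as heterodimers with the retinoid X receptors and recruit corepressors without ligand and coactivators with it. TGM2 is one of the classical genes induced by retinoids in myeloid cells, together with the receptor gene RARB and the genes of retinoid breakdown and storage. Corin is a hybrid small molecule that inhibits CoREST, a corepressor complex that holds the lysine demethylase LSD1, encoded by KDM1A, together with 2 histone deacetylases, HDAC1 and HDAC2.

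Both lines are labelled as acute myeloid leukaemia lines. SKNO-1 has a fusion of RUNX1 with RUNX1T1. U-937 resembles immature monocytes. For each line there were 4 groups of 2 libraries: solvent only (DMSO), ATRA, Corin, and ATRA plus Corin. Cells were collected 24 h after treatment, with 0.1 µM of each agent. All groups grew in the same basal medium, and SKNO-1 alone also received GM-CSF at 10 ng/mL, so line and cytokine cannot be told apart. Each group is 1 line, and nothing in the labels says that its 2 libraries came from separate cultures, so p-values measure only the spread between these libraries.

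The libraries held 28.4 to 37.8 M estimated counts. The lines matched their identity genes, with RUNX1T1 expressed in SKNO-1 and HOXA9 and HOXA10 in U-937. Of 6 myeloid markers none was at 0 throughout, and their summed level was 623 to 1150 TPM (transcripts per 1 M) in SKNO-1 and 135 to 263 TPM in U-937. Most of the SKNO-1 sum was MPO, at 506 to 1040 TPM there and only 0.03 to 0.15 TPM in U-937. The sums therefore do not rank the lines. Markers of other cell types that express TGM2 were low: the 3 endothelial markers summed to at most 0.17 TPM, the 3 epithelial markers to at most 0.25 TPM, and the 3 fibroblast and smooth muscle markers to between 0.81 and 2.3 TPM. The 2 T cell markers summed to at most 0.16 TPM, the 3 erythroid markers to at most 0.07 TPM with 2 of them at 0 in every library, and the 3 B cell markers to between 0.34 and 4.58 TPM. The SKNO-1 DMSO libraries stood further apart from each other than any other pair, with an SD of their log2 difference of 0.354 over 9886 genes, against 0.117 to 0.198 in the other 7 groups.

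TGM2 (ENSG00000198959.12) lies on the minus strand of chromosome 20, from 38127385 to 38166578 on GRCh38, and spans 39194 bases. GENCODE lists 6 transcripts. The longest, TGM2-201, has 13 exons and 4970 bases and codes for protein, as do 2 short ones of 1018 and 693 bases. TGM2-204, TGM2-205 and TGM2-206 are annotated as retained-intron transcripts of 1862, 3467 and 2287 bases. The 3′ end of TGM2 overlaps the plus-strand gene RPRD1B by 396 bases. Whether counting used the strand of reads is not given in the sources used here, so reads from that stretch could be assigned to either gene.

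In SKNO-1 the DMSO libraries held 93 and 80 TGM2 counts, the Corin libraries 239 and 269, the ATRA libraries 489 and 583, and the libraries with both agents 650 and 749. On TMM-scaled totals these are 2.79 and 2.26 CPM (counts per 1 M) with DMSO, 7.16 and 8.31 CPM with Corin, 15 and 16.2 CPM with ATRA, and 20.5 and 22.9 CPM with both. The DMSO libraries were lowest, each treatment stood above them, and no 2 of the 4 groups overlapped.

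In U-937 one DMSO library held 0 TGM2 counts and the other 1, where 3 counts, the limit that a count of 0 allows, would be 0.0906 and 0.0983 CPM. The Corin libraries held 34 and 31 counts (0.872 and 0.974 CPM), the ATRA libraries 2913 and 2581 (77.6 and 75.7 CPM), and the libraries with both agents 6111 and 4886 (174 and 161 CPM). The groups again did not overlap, and they followed the order seen in SKNO-1: DMSO, Corin, ATRA, both. In bulk RNA, more cells that express TGM2 and more TGM2 RNA in each cell cannot be told apart.

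**Figure D1:**
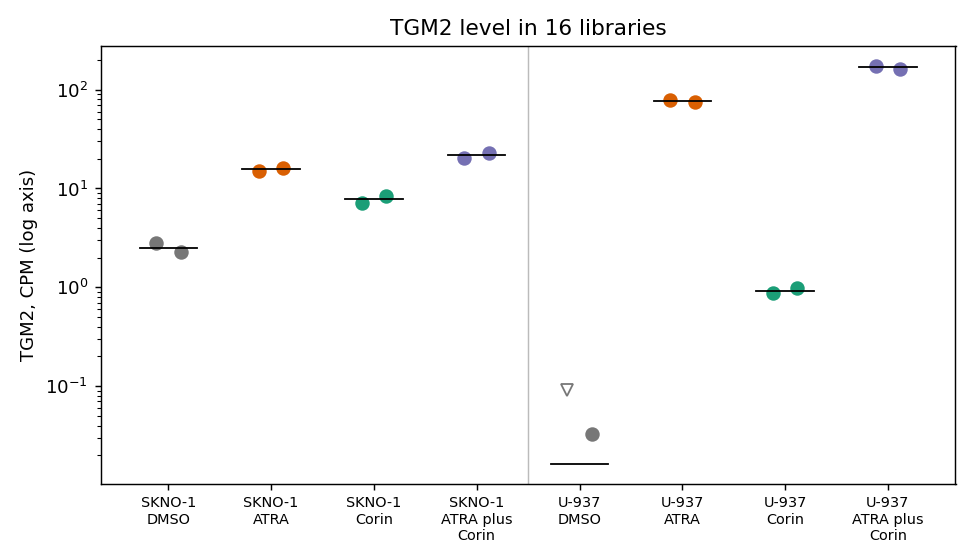
TGM2 in CPM on a log axis for 8 groups of 2 libraries; points are libraries, lines are group means, and the open triangle marks the 3-count limit of the U-937 DMSO library with 0 counts. The U-937 groups span from below 0.1 CPM to between 161 and 174 CPM, and the SKNO-1 groups from 2.26 to 22.9 CPM.

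From the lowest to the highest mean level, the 8 groups stood in the order U-937 DMSO (0.0164 ± 0.0232 CPM, SD, n = 2), U-937 Corin (0.923 ± 0.072), SKNO-1 DMSO (2.52 ± 0.377), SKNO-1 Corin (7.74 ± 0.814), SKNO-1 ATRA (15.6 ± 0.8), SKNO-1 with both (21.7 ± 1.69), U-937 ATRA (76.7 ± 1.36) and U-937 with both (168 ± 8.59). No neighbours in this order overlapped in CPM. Per transcript length, SKNO-1 with ATRA (3.1 and 3.4 TPM) and with both agents (2.85 and 4.03 TPM) did overlap, so that pair differed in CPM only. The line with more TGM2 therefore depended on treatment. SKNO-1 was 160-fold higher than U-937 with DMSO (counting interval 28.3 to 6350) and 8.42-fold higher with Corin (6.49 to 11.1). U-937 was 4.91-fold higher than SKNO-1 with ATRA (4.59 to 5.24) and 7.72-fold higher with both (7.3 to 8.17). All such intervals are exact 95% intervals of a ratio of counts and cover counting error only. In TPM the ratio of U-937 to SKNO-1 was 0.0215 with DMSO, 0.199 with Corin, 6.12 with ATRA and 10.9 with both. In scaled counts it was 0.00625, 0.119, 4.91 and 7.72, so the sizes depend on the unit and the directions do not.

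With ATRA alone, SKNO-1 TGM2 had a ratio to DMSO of 6.22 (interval 5.29 to 7.35) and a fitted log2 fold change of 2.67 (SE 0.157), the 124th highest of 17479 genes. Over fits that left out 1 library each, which include both of the unlike DMSO libraries, that log2 fold change ran from 2.46 to 2.81. In U-937 the ratio was 4880, but with 1 count in DMSO its interval ran from 876 to 193000. The fitted log2 fold change of 11.95 was the second highest of 17717 genes and ranged from 11.04 to 14.36 when 1 library was left out. The lower end came without the DMSO library at 0, and the upper end without the DMSO library that held the 1 count.

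Corin alone was followed by a smaller difference in both lines. The ratio to DMSO was 3.07 for SKNO-1 (interval 2.58 to 3.67; log2 1.62, SE 0.158) and 58.4 for U-937 (interval 10.1 to 2340; log2 5.57). The U-937 fold is the larger, yet the level it reached, 0.923 CPM, was below the untreated level of SKNO-1. Without the DMSO library at 0 the U-937 log2 fold change was 4.66, and without the other DMSO library it was 7.99.

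With Corin added to ATRA, the ratio of TGM2 over ATRA alone was 1.39 in SKNO-1 (interval 1.28 to 1.51; log2 0.49, SE 0.137) and 2.19 in U-937 (interval 2.12 to 2.26; log2 1.14, SE 0.0998). Adding ATRA to Corin gave ratios over Corin alone of 2.82 in SKNO-1 (2.54 to 3.12) and 183 in U-937 (143 to 237). In CPM above DMSO, the single agents in SKNO-1 added 13.1 (ATRA) and 5.22 (Corin), a sum of 18.3, and both together added 19.2, which lies within 1 SD (1.69) of that sum. In U-937 they added 76.7 and 0.907, a sum of 77.6, whereas both together added 168. In CPM the gain with both agents thus stayed near the sum of single gains in SKNO-1 and exceeded it by far more than the spread between libraries (SD 8.59) in U-937. On the log2 scale the direction was the opposite: when the ATRA and Corin fold changes were summed and taken from that of the combination, SKNO-1 gave -1.14. U-937 gave -4.69, a value that rests on 1 DMSO count. Within a line these comparisons share the DMSO libraries. On log2(TPM + 0.1) the difference between both agents and ATRA in SKNO-1 was 0.06. The SKNO-1 means were 0.465 TPM with DMSO, 3.25 with ATRA, 1.56 with Corin and 3.44 (SD 0.834) with both. In TPM the mean gain with both agents was thus smaller than the sum of single gains there.

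Among the 37788 genes with at most 1 count over both U-937 DMSO libraries, only 4 exceeded 10 CPM with ATRA. TGM2 was the highest of them at 76.7 CPM, followed by RARB at 20.1 CPM and the eosinophil chemokine gene CCL24 at 19.2 CPM. With both agents 11 such genes exceeded 10 CPM, and TGM2 was again first at 168 CPM, ahead of ADGRE3 at 50.5 CPM and ARL14EPL at 45.9 CPM. With Corin alone 0 of them exceeded 10 CPM, and TGM2 was in place 7, below the scavenger receptor gene CD163 at 3.48 CPM. These genes were picked by the DMSO counts that also enter the fold change of TGM2, so the ranks are a description. In the authors' deposited tables the log2 fold change of TGM2 was 12.24 with ATRA, 5.87 with Corin and 13.36 with both in U-937. In SKNO-1 the authors' deposited tables give 2.65, 1.59 and 3.09.

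The mean length of TGM2 transcripts, which RSEM weights by the estimated abundance of each annotated transcript, differed between the lines. In the 4 SKNO-1 libraries with ATRA alone or with Corin it was 4208, 3885, 4750 and 4179 bases. In the 4 matching U-937 libraries it was 3345, 3557, 3371 and 3357 bases. Every SKNO-1 value was above every U-937 value, with means of 4255 ± 361 and 3407 ± 100 bases (SD, n = 4), a difference of -848 bases for U-937 minus SKNO-1. Of 8817 genes compared in the same way, 2.1% had a larger relative change in length and 13.6% did not overlap between the lines. This comparison was chosen after the values were seen and pools libraries of 2 treatments per line, so it is a description with no test. All 8 values lay below the length of the full-length TGM2-201, 4970 bases, and a mean over 6 transcripts does not say which of them were present. The shorter lengths make the ratio of U-937 to SKNO-1 with ATRA larger per length (6.12 in TPM) than in CPM (4.91).

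**Figure D2:**
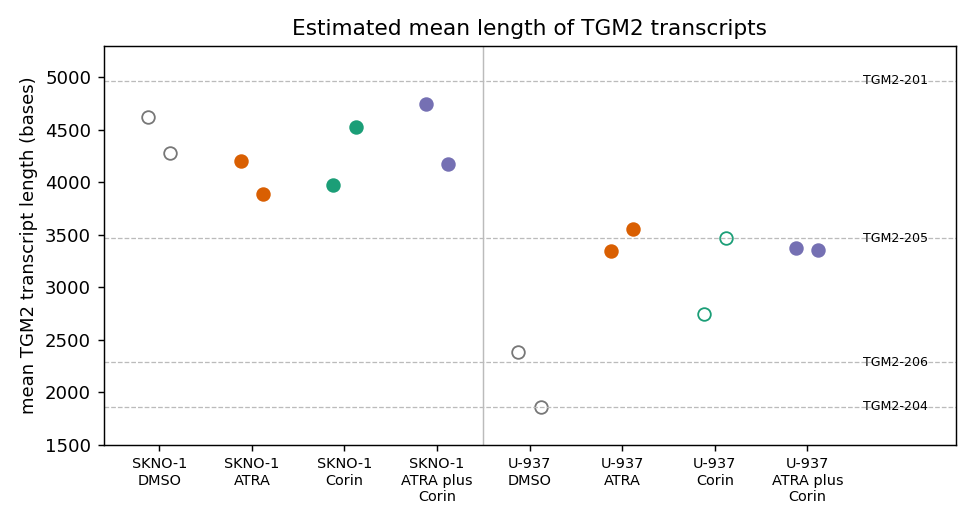
Abundance-weighted mean length of TGM2 transcripts in bases for each library; filled points have at least 100 TGM2 counts, open points fewer, and dashed lines mark lengths of annotated transcripts. The 4 U-937 libraries with ATRA lie between 3345 and 3557 bases, below the 4 SKNO-1 libraries with ATRA at 3885 to 4750 bases.

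Other retinoic acid targets are set beside TGM2 here. A list of 18 held 13 that could be tested in each line. Some had almost no counts over the DMSO libraries. In SKNO-1 these were RARB and DHRS3 with 0 and CYP26A1 and CRABP2 with 1 each. In U-937 they were RARB with 0 and HIC1 with 4. Such genes passed the count filter through treated libraries and could hardly have been called lower. For every comparison with DMSO, the counts of targets that rose or fell and their medians are therefore a description only. With ATRA in SKNO-1, 8 rose and 0 fell, with a median log2 fold change of 1.42 against 0.01 over all genes, where 2.96% of genes tested were called higher and 3.79% lower. With ATRA in U-937, 10 rose and 1 fell, with a median of 2.47 against 0.02 over all genes, where 21.7% were called higher and 20.1% lower. The member that fell was ASB2, a ubiquitin ligase subunit gene (log2 fold change -0.39, SE 0.119, adjusted p = 0.0103, by the quasi-likelihood test of edgeR after Benjamini-Hochberg adjustment, as for all adjusted p-values here). Its adjusted p ran from 0.00388 to 0.111 over the alternatives and passed 0.05 without U-937 ATRA replicate 2 or without U-937 DMSO replicate 1.

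RARB, a retinoic acid receptor gene that is itself a target of the receptors, was, like TGM2, almost absent from U-937 without ATRA. In U-937 it was at 0 in both DMSO libraries and both Corin libraries, at 20.4 and 19.9 CPM with ATRA, and at 23.1 and 29.8 CPM with both. Against a floor of 3 counts over the DMSO group, it was at least 427-fold higher with ATRA (adjusted p = 1.47e-15). In SKNO-1 RARB was also at 0 with DMSO and reached only 0.554 and 0.666 CPM with ATRA. That is a rise of at least 14.1-fold (adjusted p = 0.00371), a call that was lost when only the 4 libraries compared were fitted (adjusted p = 0.0564; over all alternatives 9.61e-12 to 0.0564). Unlike RARB, TGM2 had a basal level in SKNO-1 and was already detectable with Corin alone in U-937.

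CYP26A1, which encodes the enzyme that degrades retinoic acid, ran opposite to TGM2 between the lines. In SKNO-1 it had 1 count over the DMSO libraries, then 6.03 and 6.3 CPM with ATRA and 20.1 and 22.2 CPM with both. The SKNO-1 ratio with ATRA was 425 with an interval of 75.8 to 16800 (adjusted p = 2.71e-05). In U-937 it never exceeded 0.0655 CPM, and the difference between the lines in the response to ATRA was -9.93 on the log2 scale (SE 1.77, adjusted p = 0.000378).

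The promoters of RARB and CYP26A1 are shown because, of the 14 listed targets in the RefSeq promoter table (GRCh38.p14), they alone hold a DR5, the direct repeat with a spacer of 5 bases that retinoic acid receptors classically bind. A repeat was counted when each arm read AGGTCA or AGTTCA or GGGTCA or GGTTCA, on either strand, in a window from 250 bases before to 50 bases after each start. A DR5 occurs in 31 of 35116 promoters (0.0883%), a DR1 in 46 (0.131%) and a DR2 in 14 (0.0399%). A match is a description of the letters, not of binding. The stretches below are the 250 bases before the start, read 5′ to 3′ on the plus strand, on which both genes lie, with the DR5 in capitals. RARB spans chr3:25428013-25428262 and has its DR5 at bases -53 to -37 from the start. CYP26A1 spans chr10:93073643-93073892 and has its DR5, on the opposite strand, at bases -90 to -74.
RARB: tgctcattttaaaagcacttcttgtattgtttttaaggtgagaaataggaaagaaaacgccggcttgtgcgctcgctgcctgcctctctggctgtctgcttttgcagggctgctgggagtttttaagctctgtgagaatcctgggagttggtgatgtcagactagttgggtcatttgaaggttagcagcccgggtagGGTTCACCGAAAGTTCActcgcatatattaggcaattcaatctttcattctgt
CYP26A1: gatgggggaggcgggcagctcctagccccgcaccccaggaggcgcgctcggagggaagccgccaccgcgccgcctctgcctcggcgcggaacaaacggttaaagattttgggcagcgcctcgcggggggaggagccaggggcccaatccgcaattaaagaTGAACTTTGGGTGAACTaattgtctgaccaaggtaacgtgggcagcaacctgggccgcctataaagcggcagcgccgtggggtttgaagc
RARB rose with ATRA in both lines, whereas CYP26A1 rose in SKNO-1 and was too low in U-937 to be tested there. The promoter of TGM2 was not analysed here.

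DHRS3, which encodes a retinaldehyde reductase, rose in both lines. In SKNO-1 it was at 0 with DMSO, at 3.26 and 3.8 CPM with ATRA, a rise of at least 81.3-fold (adjusted p = 3.35e-05), and at 29.5 and 30.2 CPM with both. In U-937 it went from 3.38 and 2.72 CPM with DMSO to 94.4 and 110 CPM with ATRA (log2 fold change 5.06, SE 0.156, adjusted p = 4.16e-16) and to 196 and 206 CPM with both. DHRS3 thus had its basal level in U-937, the reverse of TGM2. HIC1, a transcriptional repressor gene, rose from 0.24 and 0.169 CPM to 28.9 and 33.2 CPM in SKNO-1 (log2 7.27, SE 0.189) and from 0.0302 and 0.0983 CPM to 19.7 and 22.7 CPM in U-937 (log2 8.31, SE 0.291). The difference between the lines for HIC1 was 1.09 (SE 0.63, adjusted p = 0.337), so these data do not separate them.

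CD38, which encodes an NAD-consuming surface enzyme, rose by a log2 fold change of 1.27 in SKNO-1 (SE 0.0657, adjusted p = 3.3e-05) and of 4.99 in U-937 (SE 0.122, adjusted p = 2.11e-19). Like TGM2 it started high in SKNO-1, at 224 and 259 CPM, and low in U-937, at 12.7 and 11.5 CPM, and the difference in response was 3.76 (SE 0.139, adjusted p = 3.36e-12). Unlike TGM2 it was still higher in SKNO-1 with ATRA, 576 and 558 CPM in SKNO-1 and 389 and 378 CPM in U-937. PLAAT4, a phospholipase and growth suppressor gene, rose by 4.07 in SKNO-1 (SE 0.207) and 4.65 in U-937 (SE 0.256), with a difference of 0.62 between the lines (SE 0.394, adjusted p = 0.422). Over the 15 list members tested between the lines, the ATRA response was higher in U-937 for 3 and lower for 4, against 10.6% and 8.8% of all genes. On library totals in place of TMM the split over all genes turned from 2100 higher and 1749 lower to 1725 higher and 2358 lower.

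With Corin alone, 7 of the 13 targets rose and 1 fell in SKNO-1, where 20.5% of all genes were called higher and 17.3% lower. In U-937, 5 rose and 0 fell, where 8.55% were called higher and 4.4% lower. PLAAT4 was among them in both lines, with a log2 fold change of 2.02 in SKNO-1 (SE 0.236, adjusted p = 0.000462) and 1.89 in U-937 (SE 0.32, adjusted p = 0.000159). DHRS9, another retinoid dehydrogenase gene, rose in U-937 both with Corin (2.45, SE 0.158, adjusted p = 4.03e-11) and with ATRA (2.47, SE 0.158, adjusted p = 7.41e-12). The Corin level of TGM2 in U-937, 0.872 and 0.974 CPM, was a small part of its ATRA level, 77.6 and 75.7 CPM. For PLAAT4 the relative gap was smaller, at 1.08 and 1.04 CPM with Corin and 7.22 and 7.19 CPM with ATRA. The SKNO-1 count was 5 without either Corin library, and the U-937 count was 3 without U-937 Corin replicate 1 or DMSO replicate 2.

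With both agents against DMSO, 10 targets rose and 0 fell in SKNO-1 (24.7% of all genes called higher, 22% lower), and 12 rose and 0 fell in U-937 (33.1% higher, 32.2% lower). Library totals in place of TMM would move all U-937 log2 fold changes of that comparison by -0.12. Against ATRA alone, adding Corin raised 8 and lowered 1 in SKNO-1 (23% higher, 21.8% lower) and raised 9 and lowered 0 in U-937 (22.5% higher, 24.9% lower). For TGM2 the same step, on the log2 scale, was 0.49 for SKNO-1 and 1.14 for U-937. DHRS3 rose by 3.09 in SKNO-1 (SE 0.139, adjusted p = 1.19e-05) and by 0.98 in U-937 (SE 0.118, adjusted p = 5.49e-07). ASB2 rose by 3.13 in SKNO-1 (SE 0.155, adjusted p = 7.29e-06) and by 1.64 in U-937 (SE 0.117, adjusted p = 3.22e-11). CD38 fell by 0.91 in SKNO-1 (SE 0.0652, adjusted p = 3.66e-05), and HIC1 stayed at 0.07 (SE 0.112, adjusted p = 0.656) in SKNO-1 and 0.01 (SE 0.138, adjusted p = 0.971) in U-937, neither past the threshold.

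**Figure D3:**
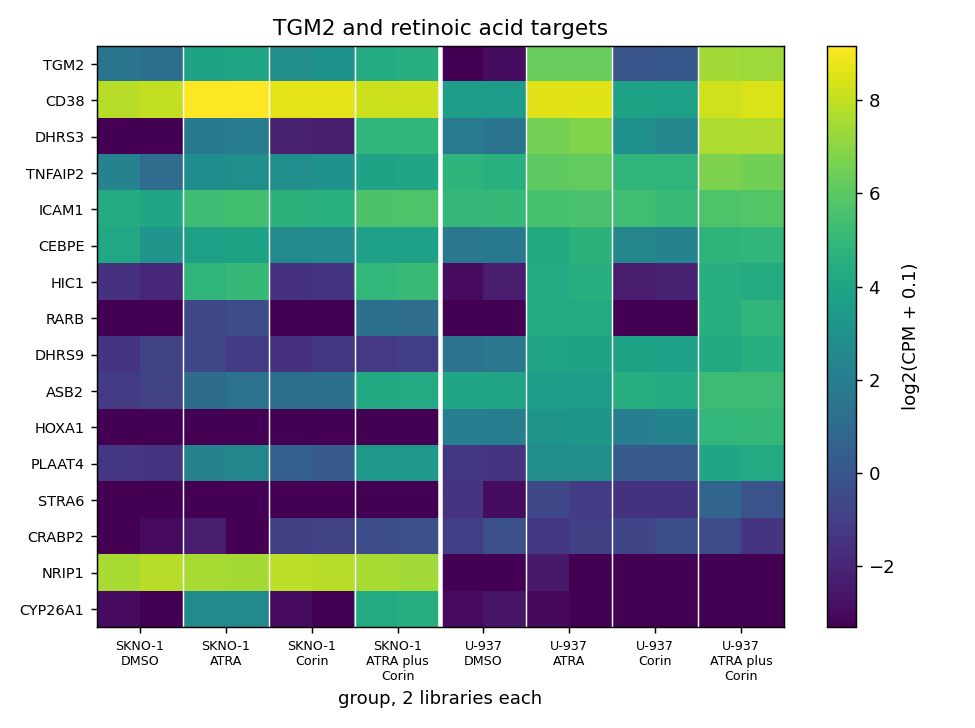
Levels of TGM2 and of listed retinoic acid targets as log2(CPM + 0.1), with 1 column per library and 2 libraries per group. TGM2 and CD38 start higher in SKNO-1 than in U-937 with DMSO, DHRS3 and ASB2 start lower there, and CYP26A1 appears in SKNO-1 with ATRA but not in U-937.

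TGM2 belongs to a family of 9 genes: the transglutaminases TGM1 to TGM7, F13A1 (the A chain of coagulation factor XIII) and EPB42 (an erythrocyte membrane protein without enzyme activity). In the U-937 libraries TGM2 and TGM5 were the most abundant members per length with ATRA, at 21.8 and 17.9 TPM for TGM2 and 23.8 and 21.5 TPM for TGM5. With DMSO, U-937 had 11.7 and 13.4 TPM of TGM5 and 0 and 0.02 TPM of TGM2. In SKNO-1 with ATRA the levels were 3.1 and 3.4 TPM for TGM2 and 4.75 and 4.34 TPM for TGM5. Without treatment TGM5 was also the higher of the pair in SKNO-1, at 2.02 and 2.19 TPM against 0.42 and 0.51 TPM for TGM2.

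Of the other 8 family genes, 3 could be tested in SKNO-1 and 4 in U-937. With ATRA 1 rose and 1 fell in SKNO-1, and 2 rose and 0 fell in U-937. Over all genes these shares were 2.96% and 3.79% in SKNO-1 and 21.7% and 20.1% in U-937. TGM5, a transglutaminase best known from epidermis, rose in both lines, by 1.14 in SKNO-1 (SE 0.14, adjusted p = 0.00213) and 1.11 in U-937 (SE 0.106, adjusted p = 8.17e-09), with a difference of 0.01 between them (SE 0.161). The SKNO-1 call for TGM5 was lost when only the 4 libraries compared were fitted (adjusted p = 0.0573; over all alternatives 2.32e-07 to 0.0573). Adding Corin to ATRA lowered TGM5 in SKNO-1, from 11 and 10.6 CPM to 5.56 and 5.33 CPM (log2 -0.98, SE 0.14, adjusted p = 0.000958). There TGM2 was higher with both agents than with ATRA in CPM, whereas its libraries overlapped in TPM.

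F13A1 took another course. In SKNO-1 it fell with ATRA, from 1.41 and 1.58 CPM to 0.338 and 0.305 CPM (log2 -2.17, SE 0.225, adjusted p = 0.000917), whereas in U-937 it stood at 15.5 and 14.9 CPM with DMSO and 16.4 and 15.6 CPM with ATRA (log2 0.07, adjusted p = 0.665). The difference between the lines was 2.28 (SE 0.271, adjusted p = 5.23e-06). With Corin alone F13A1 rose in both lines, by 1.53 in SKNO-1 (SE 0.168, adjusted p = 0.000358) and 0.9 in U-937 (SE 0.119, adjusted p = 7.39e-06). With both agents in U-937, where TGM2 was at its highest, F13A1 was at 3.89 and 4.4 CPM, a fall of 1.94 from ATRA alone (log2 -1.94, SE 0.136, adjusted p = 2.08e-11). TGM3, the epidermal and hair follicle transglutaminase gene, had 0 counts in all SKNO-1 libraries. In U-937 TGM3 rose with ATRA from 0.272 and 0.393 CPM to 2.03 and 2.08 CPM (log2 2.62, SE 0.335, adjusted p = 8.51e-07). TGM1, TGM4, TGM6 and TGM7 stayed below 1 CPM in every library, and EPB42 had 0 counts in all of them.

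Genes whose products TGM2 binds or acts on were listed as 20 partners and effectors. With ATRA, 1 of 15 tested rose and 3 fell in SKNO-1, and 5 of 16 rose and 2 fell in U-937, against 2.96% higher and 3.79% lower over all genes in SKNO-1 and 21.7% and 20.1% in U-937. The U-937 counts are not far from those shares. ITGA5, the fibronectin receptor subunit with which surface TGM2 associates, rose in both lines, from 199 and 165 CPM to 454 and 473 CPM in SKNO-1 (log2 1.39, SE 0.0977, adjusted p = 0.000124) and from 288 and 271 CPM to 499 and 577 CPM in U-937 (log2 0.94, SE 0.107, adjusted p = 1.55e-07). Its partner subunit ITGB1 rose in U-937 with ATRA (0.46, SE 0.111, adjusted p = 0.00164) and further when Corin was added (0.94 over ATRA, SE 0.111, adjusted p = 1.7e-07). FN1, the fibronectin gene, was at 0 in every SKNO-1 library and at no more than 2.19 CPM in U-937.

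LRP1, the endocytic receptor that takes up surface TGM2, followed Corin rather than ATRA in SKNO-1. It had 0.03 and 0.141 CPM with DMSO, 0 and 0.0277 CPM with ATRA, 15.3 and 15 CPM with Corin and 24.8 and 21.2 CPM with both. The rise with Corin was 7.38 on the log2 scale (SE 0.333, adjusted p = 6.47e-06). In U-937 LRP1 was at no more than 0.785 CPM with either agent alone and at 5.09 and 4.26 CPM with both (log2 5.01 against DMSO, SE 0.425, adjusted p = 2.42e-10). With Corin alone 5 of 15 tested partners rose and 3 fell in SKNO-1, and 9 of 16 rose and 0 fell in U-937. Over all genes 20.5% were higher and 17.3% lower with Corin in SKNO-1, and 8.55% and 4.4% in U-937. In SKNO-1 the share of partners that fell was near that of all genes. The counts of partners are a description only. LTBP1, which stores latent TGF-beta in the matrix and is crosslinked by TGM2, fell with ATRA in SKNO-1 (-1.83, SE 0.24, adjusted p = 0.00282) and rose with Corin in U-937 (1.35, SE 0.114, adjusted p = 4.6e-09).

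Of 12 reported regulators of TGM2, 3 of 10 tested rose and 2 fell with ATRA in SKNO-1, and 6 of 11 rose and 0 fell in U-937, beside all-gene shares of 2.96% higher and 3.79% lower in SKNO-1 and 21.7% and 20.1% in U-937. NR1H3, the oxysterol receptor LXR alpha, rose from 3.41 and 3.44 CPM to 21.3 and 24.6 CPM in U-937 (log2 2.74, SE 0.145, adjusted p = 2.46e-13) and from 3.33 and 3.1 CPM to 6.4 and 6.44 CPM in SKNO-1 (log2 1.03, SE 0.126, adjusted p = 0.0021). The SKNO-1 call for NR1H3 was lost when only the 4 libraries compared were fitted (adjusted p = 0.0695; over all alternatives 9.34e-06 to 0.0695). HIF1A, the oxygen-regulated factor gene, rose by a like amount in both lines, 0.98 in SKNO-1 (SE 0.0904, adjusted p = 0.000533) and 0.83 in U-937 (SE 0.105, adjusted p = 7.63e-07). CEBPB, a monocytic transcription factor gene, rose by 1.83 in U-937 (SE 0.142, adjusted p = 5.91e-09). STAT3 fell in SKNO-1 (-0.62, SE 0.0627, adjusted p = 0.000851).

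A list of 14 genes held retinoid receptors, coregulators and the targets of Corin. With ATRA 0 of 13 tested rose and 1 fell in SKNO-1, and 2 rose and 3 fell in U-937. With 2.96% higher and 3.79% lower over all genes in SKNO-1 and 21.7% and 20.1% in U-937, the U-937 counts are near or below the background. RARG rose with Corin in SKNO-1 from 0.84 and 0.93 CPM to 5.39 and 6.64 CPM (log2 2.76, SE 0.188, adjusted p = 3.82e-05) and fell with ATRA in U-937 (-1.17, SE 0.201, adjusted p = 4.71e-05). KDM1A, which encodes LSD1, fell in U-937 with ATRA from 240 and 258 CPM to 157 and 151 CPM (-0.69, SE 0.0988, adjusted p = 4.08e-06) and with both agents to 101 and 111 CPM (-1.23, SE 0.1, adjusted p = 1.34e-10). HDAC2 also fell in U-937 with both agents (-1, SE 0.103, adjusted p = 8.35e-09). RARA, the main retinoic acid receptor gene of myeloid cells, was at 11.1 and 9.01 CPM with DMSO and 10.7 and 12.5 CPM with ATRA in U-937.

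TGM2 is a marker of alternatively activated macrophages. Of 14 other such markers only 5 were testable in SKNO-1 and 6 in U-937; with ATRA 1 rose and 0 fell in SKNO-1, and 4 rose and 0 fell in U-937. Over all genes 2.96% rose in SKNO-1 and 21.7% in U-937. Most of the markers tested in U-937 were nearly absent with DMSO. Over both DMSO libraries CD163 had 0 counts, CD209 and CLEC10A 1 each, VSIG4 3 and CLEC7A 5. These passed the count filter through treated libraries and could hardly have been called lower. The U-937 counts of markers that rose or fell are therefore a description only. VSIG4, a complement receptor gene, rose in U-937 from 0.0604 and 0.0328 CPM to 8.34 and 7.86 CPM with ATRA (3 counts in DMSO; ratio 172, interval 58.6 to 837) and to 27.6 and 36.8 CPM with both. In SKNO-1 VSIG4 rose from 2.16 and 2.06 CPM to 5.14 and 4.77 CPM with ATRA (log2 1.27, SE 0.125, adjusted p = 0.000742). That SKNO-1 call was lost when only the 4 libraries compared were fitted (adjusted p = 0.0555; over all alternatives 1.06e-10 to 0.0555). Like TGM2, VSIG4 had a basal level in SKNO-1 and almost none in U-937, and its responses to ATRA differed by 6.09 (SE 0.432, adjusted p = 8.4e-09). The lectin gene CD209 went from 1 count over U-937 DMSO to 2.05 and 1.91 CPM with ATRA and 4.01 and 4.1 CPM with both. MRC1, the mannose receptor gene that is a defining marker of the state, was at 0 in the U-937 libraries with ATRA or with both agents.

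The 5 protein-coding genes on each side of TGM2 were followed as neighbours, of which 4 could be tested in SKNO-1 and 7 in U-937. With ATRA 0 rose and 0 fell in SKNO-1, and 3 rose and 1 fell in U-937, where 21.7% of all genes were called higher and 20.1% lower. All 3 that rose lie on the side of TGM2 with higher coordinates, upstream of its start. Over the U-937 DMSO libraries they held few counts: 8 for KIAA1755, 21 for BPI and 5 for LBP. They passed the count filter through treated libraries and could hardly have been called lower. Their number beside the all-gene share is therefore a description only. KIAA1755, whose end is 43.9 kb away, rose from 0.121 and 0.131 CPM to 1.6 and 1.03 CPM (log2 3.35, SE 0.44, adjusted p = 1.12e-06). BPI, an antibacterial granule protein gene 137.6 kb away, rose from 0.483 and 0.164 CPM to 6.74 and 6.39 CPM (log2 4.3, SE 0.254, adjusted p = 2e-12). LBP, the gene of the lipopolysaccharide-binding protein 179.9 kb away, rose from 0.151 and 0 CPM to 1.79 and 1.2 CPM (log2 4.19, SE 0.554, adjusted p = 7.31e-06).

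With both agents the same 3 genes stood higher still in U-937: KIAA1755 at 4.01 and 4.3 CPM, BPI at 69.3 and 79.5 CPM and LBP at 8.12 and 8.26 CPM. The step from ATRA alone was 1.66 for KIAA1755 (SE 0.284), 3.51 for BPI (SE 0.145) and 2.46 for LBP (SE 0.309), against 1.14 for TGM2. In SKNO-1 BPI and LBP did not exceed 0.411 and 0.276 CPM in any library, whereas TGM2 was at 2.26 to 22.9 CPM there. The difference between the lines in the ATRA response was 5.28 for BPI (SE 0.878, adjusted p = 0.000354) and 3.88 for LBP (SE 1.29, adjusted p = 0.0402). The call for LBP was lost under several alternatives, with adjusted p-values from 0.00377 to 0.363 over all of them. These were the replicate block, library totals, and the fits without either SKNO-1 ATRA library, SKNO-1 DMSO replicate 2, U-937 ATRA replicate 1 or U-937 DMSO replicate 2.

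On the other side, RPRD1B, which encodes a protein that binds RNA polymerase II and which overlaps TGM2, was at 59.7 and 64.7 CPM with DMSO and 64.5 and 60 CPM with ATRA in U-937 (log2 0, adjusted p = 1). It fell with both agents to 34.9 and 37.1 CPM (log2 -0.78, SE 0.102, adjusted p = 4.05e-07), so within U-937 RPRD1B was lowest where TGM2 was highest. In SKNO-1 mean RPRD1B was about as low with Corin (36.8 CPM) and with both (35.3 CPM), where mean TGM2 was 7.74 and 21.7 CPM. TTI1, a gene for a chaperone subunit of large kinases, was the neighbour that fell with ATRA in U-937 (log2 -0.37, SE 0.1, adjusted p = 0.00463), a call lost without U-937 ATRA replicate 2 (0.000763 to 0.114 over all alternatives). It fell with both agents in U-937 from 68.8 and 70.4 CPM to 23.2 and 23.9 CPM (log2 -1.56, SE 0.105, adjusted p = 3.78e-12). CTNNBL1 and RALGAPB, further out, stayed between 53.1 and 65.5 CPM and between 122 and 143 CPM in U-937, and NNAT had 0 counts throughout.

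**Figure D4:**
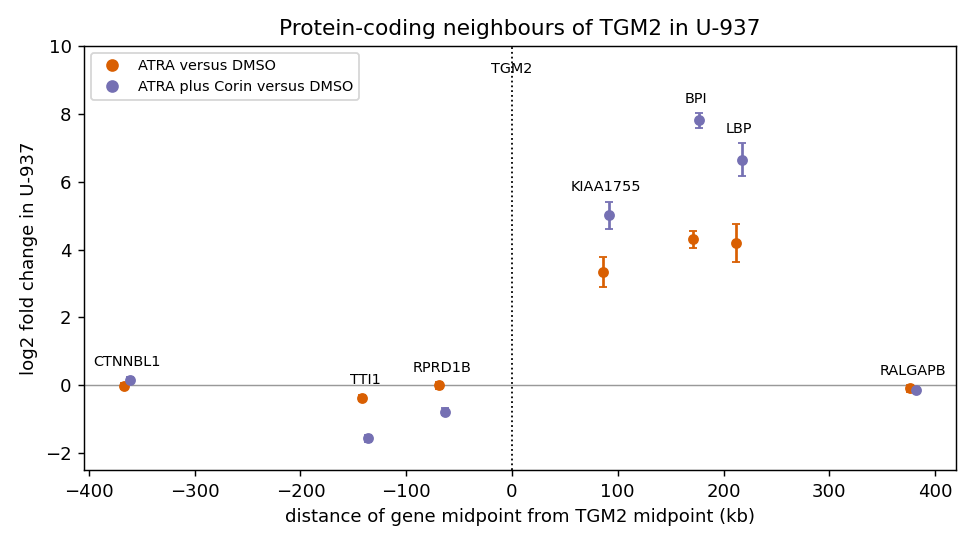
Log2 fold change in U-937 of the tested protein-coding neighbours of TGM2 against the distance of gene midpoints in kb, for ATRA and for both agents against DMSO; bars are standard errors of the fit. KIAA1755, BPI and LBP lie above 3 for both treatments, and the other 4 genes lie near or below 0.

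The genes whose levels tracked TGM2 most closely were taken by Pearson's r of log2(CPM + 1). Over all 16 libraries and 16084 genes the 10 highest included SHOX2 (0.984), DAPP1 (0.982), IFI35 (0.978), P2RY13 (0.974), AGO1 (0.972), IRF1 (0.956), MFSD11 (0.955), SAMHD1 (0.953) and CASP1 (0.952). These points share libraries, depth and treatment groups, so r describes likeness only. It also takes no account of the size of a change. The group means of SHOX2 ran only from 7.44 to 16 CPM, against 0.0164 to 168 CPM for TGM2. IRF1, an interferon response factor gene, had its group means in the same order as TGM2, over a smaller range. For DMSO, ATRA, Corin and both, they were 23.9, 76.1, 29.1 and 104 CPM in SKNO-1 and 8.61, 105, 19 and 148 CPM in U-937. P2RY13, a purine receptor gene, had means of 2.41, 4.32, 5.67 and 11.8 CPM in SKNO-1 and 0.186, 17.6, 0.626 and 59.6 CPM in U-937, so that, unlike TGM2, it was higher with Corin than with ATRA in SKNO-1.

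Over the 8 U-937 libraries alone the 10 most like genes were GNG2, SPECC1 and SIGLEC11 (0.999 each), PALLD, SIGLEC16, NDRG1, C1RL and FGR (0.998 each), and PTGS1 and B4GALT5 (0.997 each). None of these is among the 10 found over all libraries (0 shared). With a pseudocount of 0.1, 7 of the 10 over all libraries and 2 of the 10 over U-937 stayed in their lists. On group means 6 and 2 stayed. SIGLEC11, a sialic acid receptor gene, had means of 0.0491, 11.7, 0.525 and 17.8 CPM in U-937 for DMSO, ATRA, Corin and both. In SKNO-1 its group means stayed at or below 0.375 CPM, where TGM2 had a mean of 21.7 CPM with both agents.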

How the data were processed

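RNA from 16 libraries, 2 per group, was analysed. The authors deposited expected counts per gene from RSEM, with TPM and abundance-weighted transcript lengths in the file of each library; per the submitters' processing notes Trimmomatic, STAR, RSEM, deepTools and DESeq2 were used on build hg38. The annotation release, and whether counting used strand or both mates, are not given in the sources used here. Per the labels, libraries were stranded total RNA. The table has 0 spike-in entries, so absolute RNA per cell was not measured. Of its positive values 20.4% were not whole, but all TGM2 values were. The authors' deposited tables of log2 fold changes were used only where named. As a second unit the files hold TPM, scaled by the authors to the same total in each library.

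Counts were rounded to whole numbers and filtered with filterByExpr in edgeR 4.0.16 (R 4.3.3, limma 3.58.1), which kept 17479 genes for SKNO-1, 17717 for U-937 and 19872 over both lines. Library sizes were scaled by TMM. A robust quasi-likelihood model was fitted to the 8 libraries of each line (4 residual degrees of freedom), or to all 16 for differences between lines. A gene was called at an adjusted p under 0.05, by Benjamini and Hochberg's method over all genes tested. CPM uses TMM-scaled totals. Ratios of scaled counts have exact conditional 95% intervals, and a group at 0 was set to a floor of 3 counts. Reads carry no molecular identifiers, so both cover counting error only. Gene positions are from GENCODE 44. The fit was tested on simulated counts. Alternatives were DESeq2 1.42.0, its size factors, library totals, no filter, only the 4 libraries compared, a replicate block and leaving out each library.

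TGM2 and the gene lists were chosen with earlier results of these data known. Named are members of the lists, the 5 protein-coding genes on each side of TGM2 and the 10 most like genes, of which 1 is not reported here; CCL24, ADGRE3 and ARL14EPL were chosen after their values were seen.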

Additional observations from a re-analysis of the deposited data

Results flagged for a closer look

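The response to ATRA differed between the lines for 10.6% (higher in U-937) and 8.8% (lower) of all genes, by the interaction test of edgeR over all 16 libraries, as log2 fold change in U-937 minus that in SKNO-1. The genes given here are those of the targets, the family and the neighbours, with VSIG4. VSIG4 is 1 of 8 macrophage genes tested, of which the response was higher in U-937 for 2 and lower for 1. Other listed genes differed too: 5 of 17 partners and effectors were higher and 2 lower, 6 of 11 regulators were higher and 0 lower, among them NR1H3 (1.75, SE 0.197, adjusted p = 3.17e-06), and 2 of 13 receptors and coregulators were higher and 2 lower. The response was greater in U-937 for the macrophage gene VSIG4 (6.09), the TGM2 neighbours BPI (5.28) and LBP (3.88), and the retinoic acid targets CD38 (3.76), CEBPE (2.72) and DHRS9 (2.2). For the transglutaminase gene F13A1 (2.28) the level fell in SKNO-1. It was smaller in U-937 for CYP26A1 (-9.93), DHRS3 (-4.84), ASB2 (-2.85) and ICAM1 (-0.59). The value for DHRS3 is fitted against 0 counts in SKNO-1 DMSO and depends on the prior count; its adjusted p ran from 0.00235 to 0.0626 over the alternatives and passed 0.05 without either SKNO-1 DMSO library. The call for LBP was lost under 7 alternatives. TGM2 itself was not tested.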

How the results depend on the processing

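The direction of every TGM2 difference was the same with DESeq2 size factors, library totals, a replicate block, log2(TPM + 0.1) or 1 library left out. TGM2 was not followed under the other alternatives. On log2(TPM + 0.1) the TGM2 differences were smaller: 2.63 for both agents and 0.06 for both against ATRA in SKNO-1, and in U-937 7.5 (ATRA), 1.9 (Corin), 8.42 (both) and 0.92 (both against ATRA); the pseudocount limits a fold against a level near 0. Leaving out 1 library gave 11.04 to 14.36 (ATRA), 4.66 to 7.99 (Corin) and 12.16 to 15.49 (both) in U-937. On library totals the U-937 Corin level was 0.998 CPM. The length difference ran from -972 to -683 bases without 1 library.

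The genes called with ATRA in SKNO-1 were 1180 (518 higher, 662 lower), 1963 with no low-count filter (710 higher, 1253 lower), 239 with only the 4 libraries compared (126 higher, 113 lower) and 561 to 5338 without 1 library. With Corin in SKNO-1 they were 6616, 3776 with only the 4 libraries compared (2439 higher, 1337 lower) and 3636 to 9520 without 1 library. Without 1 library they were 4961 to 5233 for both against ATRA in SKNO-1 (7828 in full), 1328 to 1887 for Corin in U-937 (2293) and 1519 to 4473 for the line difference with Corin (2537). Retinoic acid targets called with Corin in SKNO-1 were 4 with only the 4 libraries compared and 5 to 9 without 1 library; in U-937 they were 3 to 5.

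Replicate numbers did not pair the samples: correlations of same-numbered deviations ran from -0.466 to 0.4. With a replicate block 904 genes were called with ATRA in SKNO-1 and 7061 in U-937. For 135 named gene and comparison pairs, 1390 alternatives gave 1335 with the same call, 52 weaker, 3 newly past the threshold and 0 reversed.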
